A study of Mus musculus with 17 samples.

Results

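The Socs family was followed through 6 populations of mouse bone marrow progenitors. Its 8 genes, Cish and Socs1 to Socs7, were taken by the gene name printed for each probe in the scanner output, and every probe of each gene was kept. This gave 14 probes of 41174 on the array, and 8 of 28090 gene names. Cish, Socs1, Socs3, Socs5 and Socs7 each have 1 probe, Socs2 has 2, Socs4 has 3 and Socs6 has 4. Where a gene has several probes, they are numbered here in the direction of transcription, and the brightest one stands for the gene.

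The mRNA came from untreated female C57Bl/6 mice of 6 to 8 weeks, with 10 to 20 mice pooled for each replicate sample and no transgene or deletion in any group. Lineage-depleted, c-kit-enriched bone marrow was sorted with antibodies to Sca-1, CD34, FLT3 and FcRγ into long-term (LT-HSC) and short-term (ST-HSC) stem cells, multipotent progenitors (MPP), common myeloid progenitors (CMP), granulocyte-macrophage progenitors (GMP) and megakaryocyte-erythrocyte progenitors (MEP). The mRNA was read on 17 single-color Agilent arrays that cover the mouse genome, with LT-HSC on 2 of them and every other population on 3. LT-HSC, ST-HSC and MPP are called HSC subsets below, and CMP, GMP and MEP myeloid populations. The labels give no replicate number for 1 array of each population and describe the other LT-HSC array as pooled from replicates 2 and 3. Values of single arrays are listed by replicate number with the unnumbered array last. All values are log2 intensities after quantile normalization, so a difference of 1 is a doubling, and levels are compared for 1 probe at a time and never between genes.

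SOCS proteins are the brakes that cytokine signaling puts on itself. When a cytokine binds its receptor, Jak kinases phosphorylate the receptor and the Stat transcription factors, and activated Stats switch on Cish, Socs1, Socs2 and Socs3 among other genes. Each SOCS protein carries an SH2 domain that binds phosphorylated tyrosine and a SOCS box that recruits elongins and a cullin, so that bound proteins are marked for destruction. Socs1 and Socs3 can in addition block the Jak kinase itself. Socs4 to Socs7 are less tied to cytokine feedback and are better known from growth factor receptors and insulin signaling.

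One form of the Stat binding site has the letters TTCNNNGAA, which read the same on both strands. The promoter table (RefSeq, GRCm38.p6) held 4 of the 8 genes, Cish, Socs1, Socs3 and Socs4. The motif was found in the 250 bases before the start of Socs3, and not in that window of Cish, Socs1 or Socs4. Of 32851 promoters of the table, 7.02% hold it in the same window. The windows of Socs3, Cish and Socs1 are shown because these genes moved together in the results that follow, with the motif in capitals where present. They lie at chr11:117969367-117969616 on the minus strand for Socs3, chr9:107296409-107296658 on the plus strand for Cish and chr16:10785537-10785786 on the minus strand for Socs1, and are written in the direction of transcription.
Socs3: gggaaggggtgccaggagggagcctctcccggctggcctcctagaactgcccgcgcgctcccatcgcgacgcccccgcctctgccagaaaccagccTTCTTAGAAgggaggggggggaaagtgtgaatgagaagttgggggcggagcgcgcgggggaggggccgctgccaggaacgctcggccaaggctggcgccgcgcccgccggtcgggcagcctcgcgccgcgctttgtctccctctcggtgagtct
Cish: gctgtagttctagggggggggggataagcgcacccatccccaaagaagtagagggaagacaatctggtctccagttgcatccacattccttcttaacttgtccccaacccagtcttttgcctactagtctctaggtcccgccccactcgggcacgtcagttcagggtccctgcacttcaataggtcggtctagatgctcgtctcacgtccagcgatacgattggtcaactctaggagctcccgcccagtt
Socs1: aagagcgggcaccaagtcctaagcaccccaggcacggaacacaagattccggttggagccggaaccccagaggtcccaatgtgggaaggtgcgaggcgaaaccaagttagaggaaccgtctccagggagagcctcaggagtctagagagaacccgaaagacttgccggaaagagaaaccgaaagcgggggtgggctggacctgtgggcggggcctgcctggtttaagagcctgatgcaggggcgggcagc
The Socs3 motif reads TTCTTAGAA and begins 154 bases before the start. A match of letters is a description of the sequence, and no binding was measured here.

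Across the 17 arrays, the family fell into 3 patterns. Socs3, Socs1, Cish, Socs2 and Socs5 were higher in HSC subsets than in myeloid populations, Socs7 was lower, and the brightest probes of Socs4 and Socs6 were not called. In the F-test over the 6 populations, limma with Benjamini-Hochberg adjustment over all probes called 6 of the 14 Socs probes, from 6 genes, where 40.6% of all probes were called. At an unadjusted level of 1e-06, which the study used as its filter, Socs3 and Socs1 passed, where 4.9% of all probes did. Their adjusted p from limma's F-test was 6.442e-08 and 2.464e-07. Socs1 and Socs3 stand on target lists that the study chose on these samples, so their calls are not independent evidence. The HSC list holds predicted targets of miRs (microRNAs) higher in HSC subsets, and the GMP list those of miRs higher in GMP. Each target was chosen for a pattern inverse to its miR. Here both genes were higher in HSC subsets, the reverse of the direction for the HSC list, and lower in GMP.

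**Figure D1:**
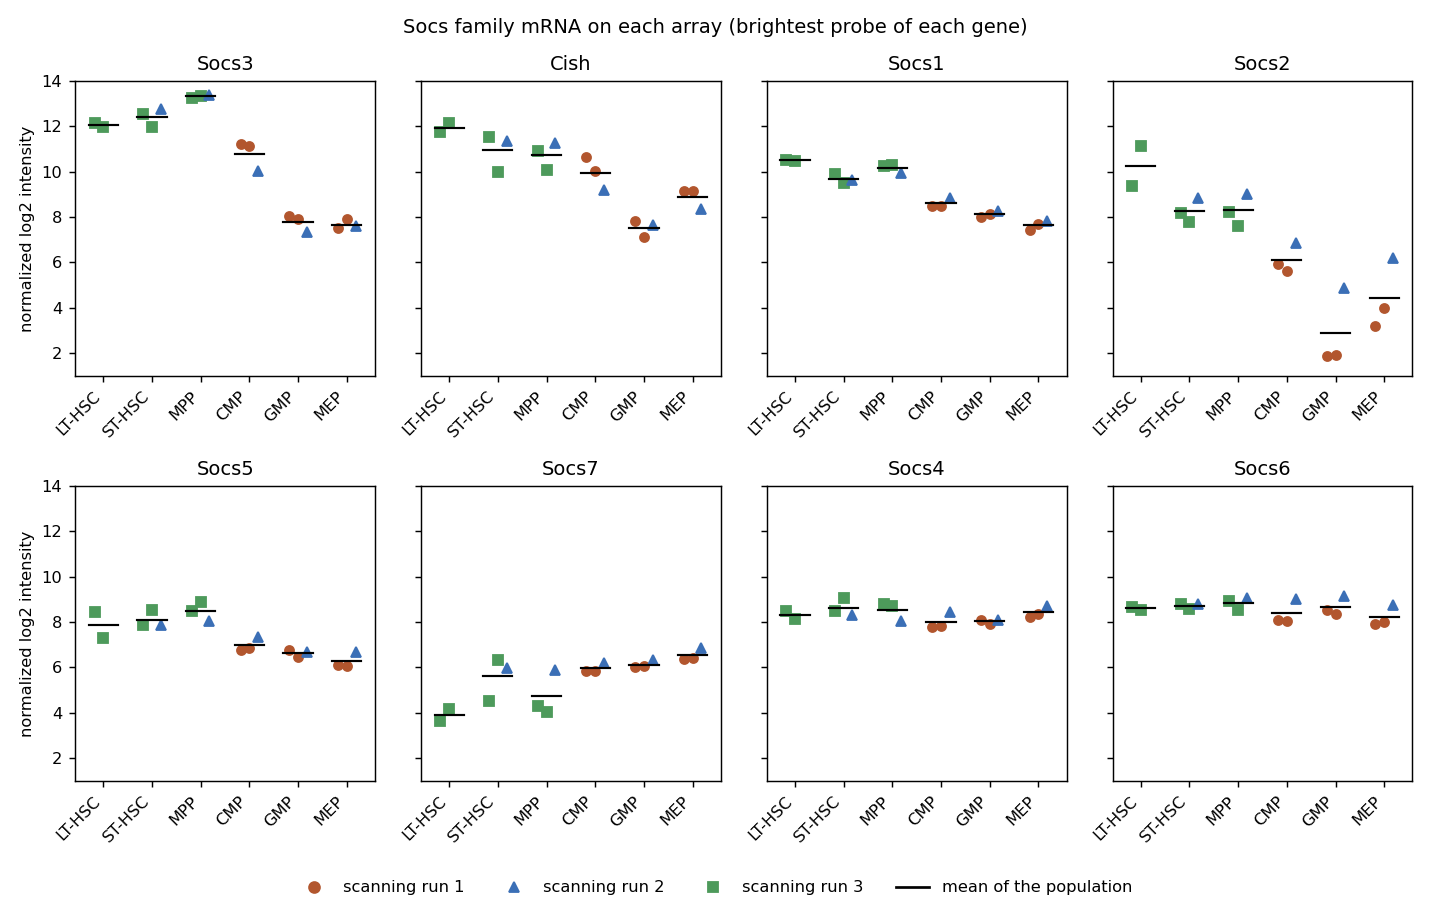
Normalized log2 intensity (vertical axis) of the brightest probe of each Socs gene on each array, by population, with the mean of each population as a bar and the scanning run as color and shape. Socs3 stands at 11.99 or above on all HSC subset arrays and at 11.22 or below on all myeloid arrays, while Socs4 and Socs6 lie between 7.76 and 9.16 throughout and Socs7 is lowest in LT-HSC.

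Socs3, which binds the shared receptor chain of interleukin 6 and the G-CSF receptor, was highest in MPP and lowest in GMP and MEP. Its probe lies at chr11:117827480-117827539 of mm9, on the minus strand. It read 12.16 and 11.99 in LT-HSC, 12.53, 11.99 and 12.78 in ST-HSC and 13.26, 13.34 and 13.40 in MPP. In CMP it read 11.22, 11.14 and 10.05, in GMP 8.04, 7.91 and 7.35, and in MEP 7.51, 7.92 and 7.59. All 8 HSC subset arrays were above all 9 myeloid arrays, MPP was above every array of ST-HSC, and GMP and MEP overlapped. The difference between HSC subsets and myeloid populations was 3.87 (SE 0.18), or 14.6-fold, with limma's adjusted p of 1.174e-08.

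Another feature of the array is described as SOCS3 in the scanner files but carries a different gene name, TC1571892, and so lies outside the family as counted here. It is placed at chr11:117828658-117828717 of mm9, in the orientation opposite to that of the Socs3 probe. Its levels were 12.48 ± 0.57 (SD, n = 2) in LT-HSC and between means of 11.42 and 11.74 in the other populations. The difference between HSC subsets and myeloid populations was 0.52 (SE 0.12, adjusted p = 0.00437 by limma) there, and the arrays overlapped.

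Socs1, which restrains interferon and interleukin 4 signaling, was highest in LT-HSC and lowest in MEP. Its probe lies at chr16:10783951-10784010 of mm9, on the minus strand. It read 10.53 and 10.49 in LT-HSC, 9.90, 9.48 and 9.63 in ST-HSC and 10.27, 10.28 and 9.95 in MPP. In CMP it read 8.49, 8.51 and 8.83, in GMP 8.003, 8.13 and 8.29, and in MEP 7.43, 7.71 and 7.82. No 2 neighbors overlapped in the order LT-HSC, MPP, ST-HSC, CMP, GMP and MEP. The difference between HSC subsets and myeloid populations was 1.98 (SE 0.10), or 3.95-fold, with limma's adjusted p of 2.025e-08.

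Cish, a classic target of Stat5 that competes for Stat5 docking sites on receptors, was highest in LT-HSC and lowest in GMP. Its probe lies at chr9:107204196-107204255 of mm9, on the plus strand. It read 11.76 and 12.13 in LT-HSC, 11.52, 9.98 and 11.37 in ST-HSC and 10.90, 10.09 and 11.28 in MPP. In CMP it read 10.63, 10.05 and 9.21, in GMP 7.83, 7.14 and 7.63, and in MEP 9.16, 9.13 and 8.34. The 3 GMP arrays lay below all other arrays, and CMP replicate 1 reached above the lowest ST-HSC and MPP arrays, so both sides overlapped. HSC subsets were higher by 2.43 (SE 0.28), or 5.38-fold, with limma's adjusted p of 1.758e-05.

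Socs2, best known as a brake on growth hormone signaling, was higher in HSC subsets, by a difference whose size rests on dim signals in GMP and MEP. Probe 1 lies at chr10:94875066-94875125 of mm9, on the minus strand. It read 9.36 and 11.12 in LT-HSC, 8.20, 7.78 and 8.82 in ST-HSC and 8.23, 7.62 and 9.02 in MPP. In CMP it read 5.91, 5.62 and 6.84, in GMP 1.88, 1.90 and 4.87, and in MEP 3.18, 3.99 and 6.17. All HSC subset arrays were above all myeloid arrays, and in GMP and MEP only the unnumbered array of each was well above background. HSC subsets were higher by 4.45 (SE 0.52, adjusted p = 2.241e-05 by limma). The size moved with how dim signals were handled, to 2.09 after normexp background correction and 2.82 in the authors' own table, with the call unchanged in both. Socs2 probe 2, 24.3 kb from probe 1, was well above background on 3 of 17 arrays, all of them HSC subsets. Its difference of 1.19 (SE 0.46) was not called (adjusted p = 0.0542 by limma). It was called at 2.83 with scanning run as a block (adjusted p = 0.0233), at 1.66 with slide as a random block (adjusted p = 0.0364) and at 1.77 under 75th percentile normalization (adjusted p = 0.00472), and stood at 0.21 and uncalled in the authors' table (adjusted p = 0.184).

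Socs5, linked to the epidermal growth factor and interleukin 4 receptors, followed the same direction with a smaller difference. Its probe lies at chr17:87536500-87536559 of mm9, on the plus strand. It read 8.45 and 7.31 in LT-HSC, 7.87, 8.52 and 7.88 in ST-HSC and 8.50, 8.87 and 8.04 in MPP. In CMP it read 6.79, 6.87 and 7.36, in GMP 6.76, 6.45 and 6.69, and in MEP 6.09, 6.04 and 6.69. The sides met at 1 point, where the unnumbered CMP array lay just above the unnumbered LT-HSC array. HSC subsets were higher by 1.51 (SE 0.19, adjusted p = 3.896e-05 by limma), and the call was lost when scanning run entered the fit (0.86, adjusted p = 0.107). After normexp correction it was 0.95 and still called.

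Socs7, an SH2 adaptor linked to insulin signaling, ran the other way and was highest in MEP. Its probe lies at chr11:97254736-97254795 of mm9, on the plus strand. It read 3.62 and 4.15 in LT-HSC, neither well above background, 4.51, 6.34 and 5.96 in ST-HSC and 4.29, 4.02 and 5.87 in MPP. In CMP it read 5.85, 5.85 and 6.21, in GMP 6.01, 6.04 and 6.33, and in MEP 6.37, 6.41 and 6.87. The MEP arrays lay above all others, the myeloid arrays sat within a narrow range, and ST-HSC and MPP were spread. HSC subsets were lower by a log2 difference of -1.48 (SE 0.29, adjusted p = 0.00110 by limma). With scanning run in the fit it was -0.85 and no longer called (adjusted p = 0.260), and it was still called at -0.47 after normexp correction, -0.74 in the authors' table and -0.86 under 75th percentile normalization.

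Socs4 and Socs6 were not called by their brightest probes, and the probes of Socs4 differed in sign over all arrays. Socs6, an adaptor that binds activated c-kit, ranged between 8.52 and 9.05 on the HSC subset arrays and between 7.93 and 9.16 on the myeloid arrays at probe 1, with a difference of 0.29 (95% interval -0.10 to 0.68). Probe 2, 60 bases away, gave 0.21 (95% interval -0.14 to 0.57). A difference above 0.68 in either direction lies outside both intervals. Probe 3 was well above background on 11 of 17 arrays with a difference of -0.37 (95% interval -1.38 to 0.64). The replicate number as a block was not read as a pairing across the sides. With it, probe 3 was called lower in HSC subsets at -1.34 (adjusted p = 0.00738 by limma) and higher in GMP against the others at 1.43 (adjusted p = 0.0128). In that fit ST-HSC stood above LT-HSC by 2.94. The pooled LT-HSC array shares its number with no other array, so LT-HSC rests there on the unnumbered array, at 1.88. Probe 3 was not well above background on either LT-HSC array. Under 75th percentile normalization its difference between the sides was 0.63 and uncalled. Probe 4, 107.8 kb from probe 1, was not well above background on any array.

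Socs4, linked to the epidermal growth factor receptor, is read by probes that overlap in no base. Probe 3, the brightest, at chr14:47915220-47915279 of mm9, ranged between 8.04 and 9.06 in HSC subsets and between 7.76 and 8.70 in myeloid populations. Its difference was 0.33 (95% interval -0.01 to 0.66) and was not called, although it passed without the unnumbered CMP array (adjusted p = 0.0495 by limma) or the unnumbered MPP array (adjusted p = 0.0381). Probe 1, at chr14:47909879-47909938, gave -0.57 (SE 0.22, adjusted p = 0.0557 by limma), and probe 2, at chr14:47910233-47910292, gave -0.70 (SE 0.23, adjusted p = 0.0265 by limma), which was called lower. The probe 2 call was lost with scanning run as a block (-0.42, adjusted p = 0.598), with slide as a random block (adjusted p = 0.134) and under 75th percentile normalization (-0.18, adjusted p = 0.556). It was kept with the replicate number as a block (-0.43, adjusted p = 0.0322 by limma). The mean of all Socs4 probes gave -0.31 (adjusted p = 0.0749 by limma). Over the 17 arrays probe 3 had Pearson's r of -0.35 with probe 2 and -0.56 with probe 1, and probes 1 and 2 had 0.66 with each other. These are descriptions over arrays that share 1 normalization. They are taken across scanning runs, and within run 2, which alone held both sides, the probes had the same sign. With scanning run in the fit, probe 3 turned to -0.38 and probe 1 to -0.025, both uncalled. On the slides that hold both sides, probe 1 stood at -0.37 and -0.42, probe 2 at -0.28 and -0.43 and probe 3 at -0.22 and -0.39.

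**Figure D2:**
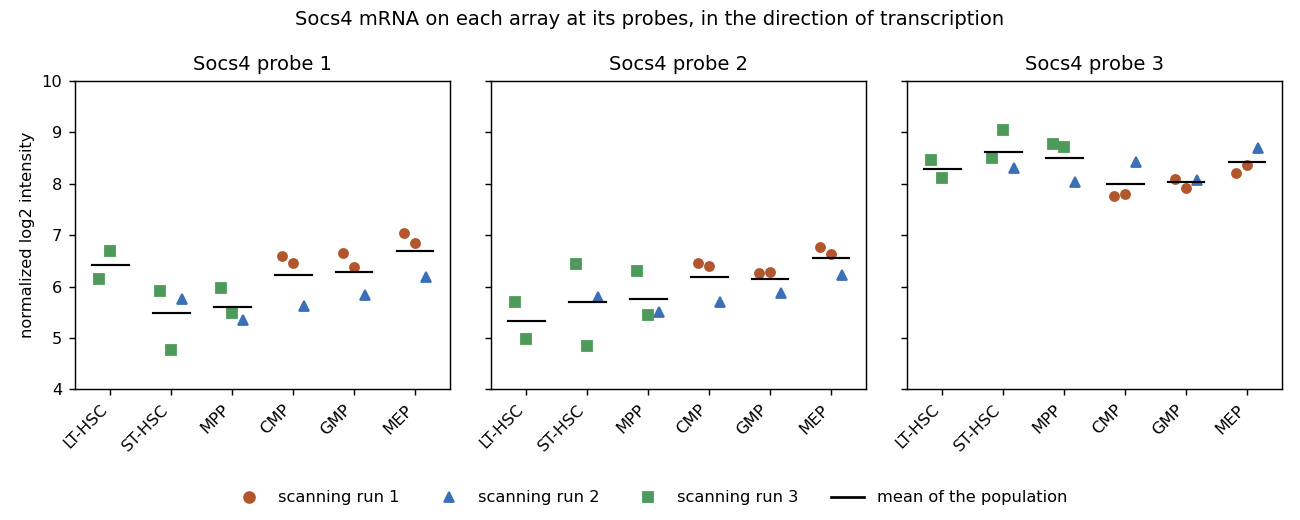
Normalized log2 intensity (vertical axis) of the Socs4 probes on each array, by population, with population means as bars and the scanning run as color and shape. Probes 1 and 2 have their highest mean in MEP and probe 3 in ST-HSC, and arrays of scanning run 2 sit below the run 1 arrays of the same myeloid population at probes 1 and 2.

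In counts, 5 of 14 Socs probes, from 5 genes, were called higher in HSC subsets, against 18.2% of all probes. A further 2 of 14 were called lower, against 23.1% of all probes. Normalization to the 75th percentile of each array moved the median of all probes to 0.31 and the split of calls over all probes from 7478 higher and 9528 lower to 10854 higher and 6088 lower. The median difference over the 14 Socs probes was 0.31, beside -0.017 over all probes. Over the brightest probe of each gene it was 1.74, beside a median of 0.044 over the 28090 genes. In bulk samples, fewer cells of a type and less RNA per cell cannot be told apart.

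**Figure D3:**
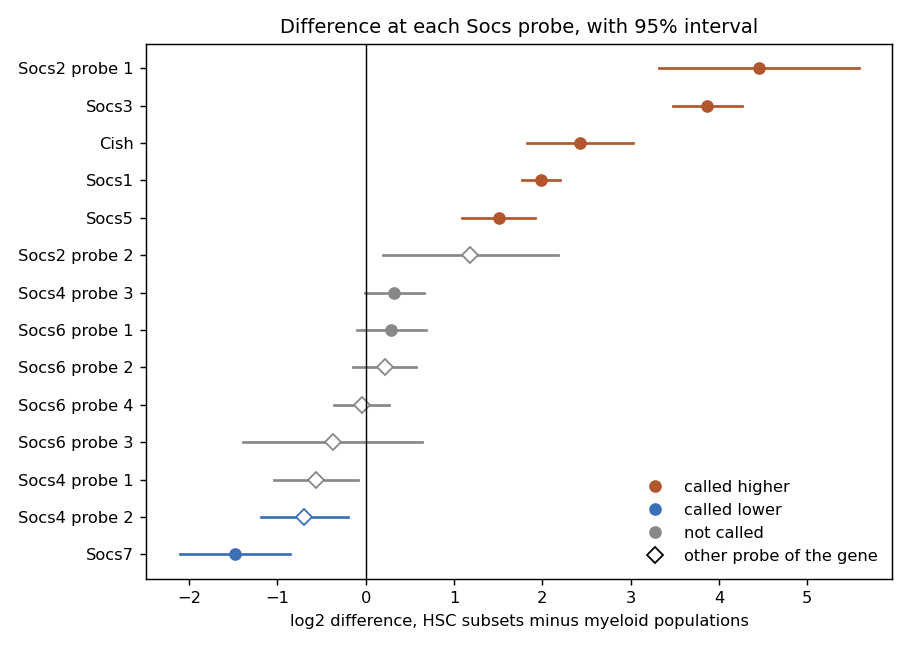
Log2 difference between HSC subsets and myeloid populations (horizontal axis) at each of the 14 Socs probes, with the 95% interval from the fit. Filled circles are the brightest probe of a gene, open diamonds the others, and color gives the call. Differences run from 4.45 at Socs2 probe 1 to -1.48 at Socs7.

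The arrays were scanned in 3 runs, and most HSC subset arrays and myeloid arrays were not scanned together. By the file headers, run 1 held 2 arrays each of CMP, GMP and MEP, run 2 held the unnumbered arrays of all populations but LT-HSC, and run 3 held the other HSC subset arrays. The methods describe separate sorts for both sides. Within run 2, however, MPP shared a slide with CMP and GMP, and ST-HSC shared another with MEP. The slides of run 2 were scanned on different days, so differences in run 2 between arrays of different slides also cross days. Scanning run as a block takes these days as 1 run. On the first of these slides, MPP exceeded the mean of CMP and GMP by 4.71 for Socs3, 3.16 for Socs2, 2.86 for Cish, 1.39 for Socs1 and 1.01 for Socs5. On the other, ST-HSC exceeded MEP by 5.20 for Socs3, 2.65 for Socs2, 3.03 for Cish, 1.81 for Socs1 and 1.19 for Socs5. Socs7 was at -0.40 and -0.91 on these slides. The 5 genes thus kept their direction on slides that hold both sides, at 1 array per population, and these differences within slides were not tested. Socs4 probe 3 was below 0 on both, as given above, and Socs6 probe 1 stood at -0.04 and 0.06, so neither showed the small positive difference of the whole set there.

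**Figure D4:**
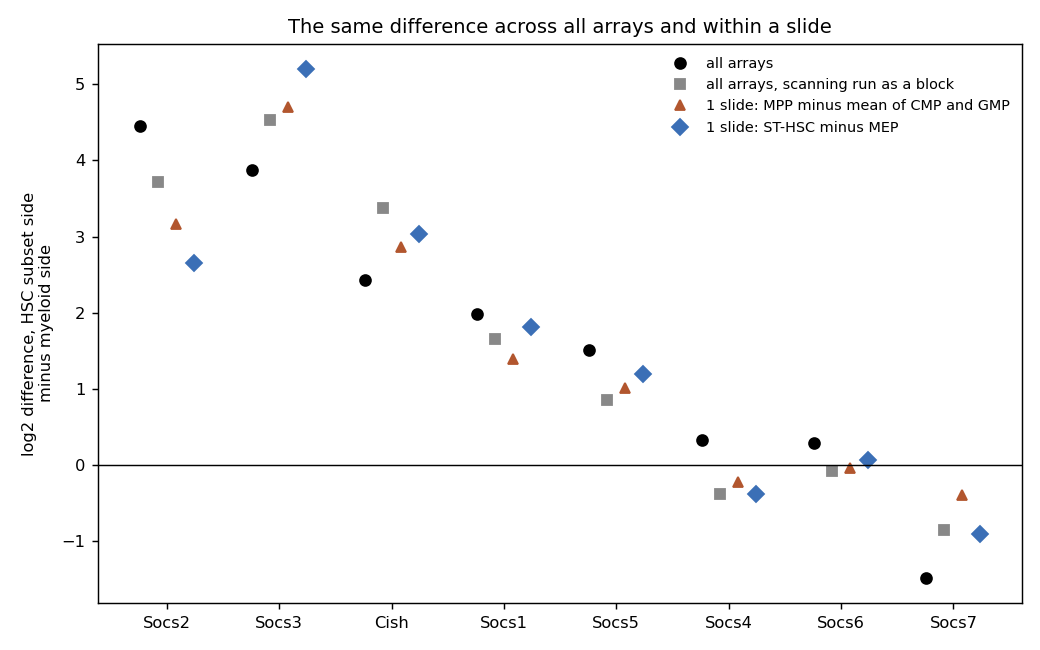
Log2 difference between the HSC subset side and the myeloid side (vertical axis) for the brightest probe of each Socs gene, from all 17 arrays, from all arrays with scanning run as a block, and within each of the slides that hold both sides. Socs3, Cish, Socs2, Socs1 and Socs5 lie above 0 in every series and Socs7 below it, while Socs4 and Socs6 change sign.

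The steps of the hierarchy were read one at a time. From LT-HSC to ST-HSC, 1 of 14 Socs probes was called, Socs1, lower by a log2 difference of -0.84 (SE 0.19, adjusted p = 0.0293 by limma), against 2.49% of all probes called lower. Both LT-HSC arrays lay alone on 1 slide, so slide and population cannot be told apart in this step. The Socs1 call was lost under 6 of 25 alternatives, among them leaving out the unnumbered LT-HSC array (adjusted p = 0.110), the unnumbered ST-HSC array (adjusted p = 0.0553) or ST-HSC replicate 3 (adjusted p = 0.0915). Cish and Socs2 were lower in all ST-HSC arrays than in both LT-HSC arrays, by -0.99 and -1.97, and were not called (adjusted p = 0.363 and 0.333 by limma). With scanning run as a block Socs2 was called lower at probe 1 (-2.29, adjusted p = 0.0295) and probe 2 (-2.60, adjusted p = 0.0462), where 5.11% of all probes were. Socs7 was not well above background on either LT-HSC array and was not called at this step (adjusted p = 0.104).

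From ST-HSC to MPP no Socs probe was called by limma, while 2.02% of all probes were. Before adjustment, 2 of 14 passed 0.05, where 8.61% of all probes did, Socs3 at 0.90 (adjusted p = 0.241 by limma) and Socs1 at 0.50 (adjusted p = 0.247). Both were higher in all MPP arrays than in all ST-HSC arrays. Socs3 was called higher at this step with scanning run as a block (adjusted p = 0.0461 by limma), where 2.02% of all probes were, and with slide as a random block (adjusted p = 0.0442), where 1.76% were. With the replicate number as a block, which pairs these populations, no Socs probe was called, and Socs3 had an adjusted p of 0.196.

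From MPP to CMP, 3 of 14 Socs probes were called lower, against 5.39% of all probes. Socs3 was lower by -2.53 (SE 0.30, adjusted p = 2.489e-04), Socs1 by -1.56 (SE 0.17, adjusted p = 1.197e-04) and Socs5 by -1.46 (SE 0.32, adjusted p = 0.0113), all by limma. On the slide that holds both populations the same differences were -3.36, -1.12 and -0.68. Socs2 differed by -2.17 with every CMP array below every MPP array and was not called (adjusted p = 0.122), although it was called at -1.59 in the authors' table (adjusted p = 0.0350), at -1.18 after normexp correction (adjusted p = 0.0496) and at -2.04 with the replicate number as a block (adjusted p = 0.0413). Cish differed by -0.79 (adjusted p = 0.287) and was not called at this step, with overlapping arrays, but was called at -1.41 with that block (adjusted p = 0.0268). The call of Socs5 was lost without MPP replicate 3 (adjusted p = 0.0556), CMP replicate 1 (0.0550) or CMP replicate 2 (0.0551), and with scanning run in the fit (-0.87, adjusted p = 0.278). Both populations come from separate sorts, and same-numbered arrays did not deviate together across them.

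From CMP to GMP, 2 of 14 were called lower, against 2.93% of all probes. Socs3 was lower by -3.04 (SE 0.30, adjusted p = 6.725e-05) and Cish by -2.43 (SE 0.46, adjusted p = 0.00721), by limma. These populations were scanned together in 2 runs, where Socs3 differed by -3.21 in run 1 and -2.70 in run 2, and Cish by -2.86 and -1.58. Socs2 differed by -3.24 with an adjusted p of 0.0532, and its GMP level was well above background on 1 of 3 arrays. With the replicate number as a block it was called (adjusted p = 0.00439 by limma), where 4.22% of all probes were called lower. Its size here rests on dim signals, and in the authors' table it was -1.11 and uncalled (adjusted p = 0.301). With scanning run as a block, Socs2 (adjusted p = 0.00173 by limma) and Socs1 (-0.47, adjusted p = 0.0440) were also called lower, where 4.76% of all probes were. In the main fit Socs1 was uncalled at this step (adjusted p = 0.182), with every GMP array below every CMP array.

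From CMP to MEP, 2 of 14 were called lower, against 9.43% of all probes. Socs3 was lower by -3.13 (SE 0.30, adjusted p = 7.948e-06) and Socs1 by -0.96 (SE 0.17, adjusted p = 0.00112), by limma. Within runs 1 and 2, Socs3 differed by -3.46 and -2.46 and Socs1 by -0.93 and -1.01. In run 2, unlike run 1, CMP and MEP lay on different slides scanned on different days. Cish differed by -1.09 and was not called (adjusted p = 0.147). With the replicate number as a block, 5 of 14 were called lower, against 11.6% of all probes. These were Socs3 and Socs1 again, with Cish (adjusted p = 0.0255 by limma), Socs2 at -1.67 (adjusted p = 0.0340, beside an uncalled -0.76 in the authors' table without the block) and Socs5 at -0.73 (adjusted p = 0.0357). Whether GMP and MEP differ in their loss of Cish was not tested.

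Read against all other populations, GMP had 5 of 14 Socs probes called lower, against 8.51% of all probes, and 0 called higher, against 11.2%. These were Socs2, Socs3, Cish, Socs1 and Socs5, and Cish stood at -2.97 (SE 0.36, adjusted p = 8.047e-05 by limma) with every GMP array below every other array. Within run 1, which held myeloid populations alone, GMP against the mean of CMP and MEP stood at -2.26 for Cish and -1.48 for Socs3, whereas Socs1 was at 0.03 and Socs5 at 0.16. Socs2 was not well above background on the GMP and MEP arrays of that run, and its value of -2.78 was -0.64 in the authors' table. Within run 2, against the other populations scanned there, Cish was at -2.42, Socs3 at -3.61, Socs1 at -0.77, Socs5 at -0.80 and Socs2 at -2.84. The Socs5 call was lost without any 1 of the GMP arrays (adjusted p between 0.0562 and 0.115) and with scanning run in the fit (adjusted p = 0.267). With the replicate number as a block, Socs6 probe 3 was called higher in GMP, as given above, where 14.3% of all probes were. MEP also had 5 called lower, against 13.4% of all probes, and 1 called higher, Socs7, against 17.9%. With scanning run as a block, Socs4 probe 3 was called higher in MEP at 0.56 (adjusted p = 0.0247 by limma), where 17.7% of all probes were. With the replicate number as a block, Socs4 probe 2 was called higher in MEP at 0.56 (adjusted p = 0.0137), where 21.3% were. Socs1 stood at -1.77 (SE 0.13, adjusted p = 3.187e-07 by limma) in MEP, with every array below every other array. Within run 1, MEP stood at -1.86 for Socs3, -0.71 for Socs1, -0.65 for Socs5 and -0.24 for Socs2 against the mean of CMP and GMP, and Cish was at 0.24. Within run 2 the same genes were at -3.31, -1.35, -0.80, -1.21 and -1.53 against the others, and Socs7 was at 0.45 in run 1 and 0.78 in run 2. Socs7 was higher in MEP by 1.29 (SE 0.38, adjusted p = 0.0180 by limma), a call lost without the unnumbered MEP array (adjusted p = 0.0872), MEP replicate 2 (adjusted p = 0.0506) or both LT-HSC arrays (adjusted p = 0.0868). It was also lost with scanning run in the fit (0.91, adjusted p = 0.0970) and under 75th percentile normalization (0.86, adjusted p = 0.0701). Cish lost its MEP call without the unnumbered MEP array (adjusted p = 0.0754) or both LT-HSC arrays (adjusted p = 0.0830), and Socs2 without MEP replicate 1 (adjusted p = 0.0718). These comparisons share arrays with each other and with that of HSC subsets.

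The parts of the pathway that act before and beside the SOCS proteins were read from lists of genes, each gene by its brightest probe, where 21.7% of 28090 genes were called higher in HSC subsets and 19.0% lower. Of 23 receptors that signal through Jak kinases, 8 were called higher and 4 lower, with a median difference of 0.36. Of 4 Jak kinases, 2 were higher and 1 lower, and Jak3, the partner of the common gamma chain, was higher by 1.89 (SE 0.12). Of 7 Stat factors, 4 were higher and 1 lower, with a median of 0.45.

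Other brakes on the pathway were divided. Of 13, 7 were higher and 4 lower, with a median of 0.31. Ptprc, which encodes the phosphatase CD45, was higher by 1.90 (SE 0.12), as was Ptpn2, a phosphatase that acts on Jak and Stat proteins, by 0.68 (SE 0.11). Pias4, an inhibitor of Stat activity, was lower at -1.46 (SE 0.15). Of 6 elongin and cullin partners of the SOCS box, 2 were higher and 0 lower, with a median of 0.11. Of 26 other genes with a SOCS box, 8 were higher and 7 lower, with Wsb1 at 1.42 (SE 0.16), Spsb3 at -1.64 (SE 0.23) and Asb3 at -0.70 (SE 0.11) the ones whose arrays did not overlap.

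Of 15 genes known to respond to Stat factors, 8 were higher and 2 lower, with a median of 0.48. Those with the largest differences and no overlap were Serpina3g, a serine protease inhibitor, at 2.77 (SE 0.11), Id1, an inhibitor of basic helix-loop-helix factors, at 2.30 (SE 0.22) and Bcl3, a nuclear cofactor of NF-κB, at 1.90 (SE 0.24). Of 11 interferon-stimulated genes, 8 were higher and 0 lower, with a median of 0.97, with Ifit3 at 2.93 (SE 0.17), Oasl2 at 2.60 (SE 0.12) and Rsad2 at 2.30 (SE 0.17). Of 17 immediate early genes, which many stimuli including cell handling induce within minutes, 15 were higher and 0 lower, with a median of 1.55. Klf6 at 2.22 (SE 0.19), Egr2 at 1.90 (SE 0.22) and Junb at 1.44 (SE 0.14) had the largest differences among those without overlap. With scanning run in the fit, where 8.16% of all genes were called higher and 7.26% lower, 10 of the Stat-responsive genes, 8 of the interferon-stimulated genes and 12 of the immediate early genes were called higher and 0 of any of them lower. The other lists had fewer calls there, with 0 elongin and cullin partners either way, 5 receptors, 1 Jak kinase, 2 Stat factors, 3 other brakes and 3 other SOCS box genes higher, and 1 other brake and 1 other SOCS box gene lower.

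**Figure D5:**
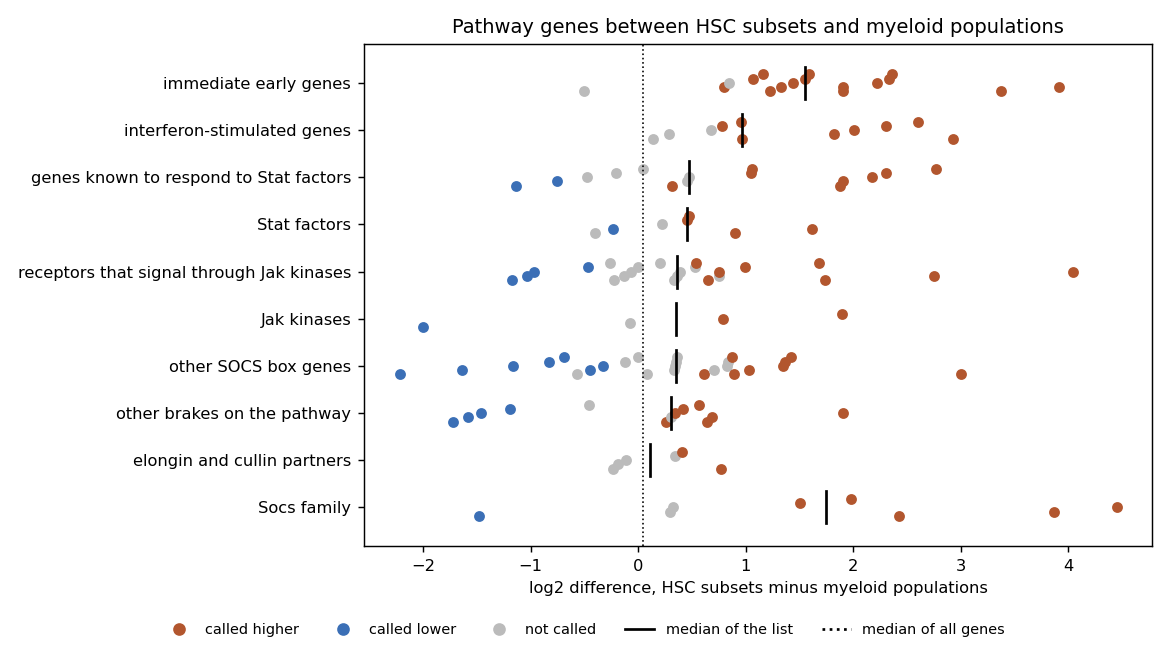
Log2 difference between HSC subsets and myeloid populations (horizontal axis) for each gene of the Socs family and of the pathway lists, at its brightest probe, with color for the call, a bar for the median of a list and a dotted line for the median of all genes. The immediate early and interferon-stimulated genes lie mostly to the right, as 5 of the 8 Socs genes do, while other brakes and other SOCS box genes are spread to both sides.

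In MEP against all other populations, where 15.8% of all genes were called higher and 15.0% lower, the receptors had 3 higher and 15 lower of 23, the genes that respond to Stat factors 0 and 10 of 15, the immediate early genes 0 and 15 of 17 and the interferon-stimulated genes 0 and 5 of 11. Stat factors had 0 higher and 3 lower of 7, Jak kinases 0 and 1 of 4, other brakes 1 and 5 of 13, elongin and cullin partners 1 and 0 of 6, and other SOCS box genes 6 and 5 of 26. In GMP against all other populations, where 9.81% of all genes were called higher and 10.007% lower, the receptors had 9 higher and 4 lower of 23 with a median of 0.33, the genes that respond to Stat factors 2 and 4, the immediate early genes 0 and 13 and the interferon-stimulated genes 1 and 7. Stat factors had 1 and 1 there, Jak kinases 1 and 2, other brakes 2 and 3, elongin and cullin partners 0 and 2, and other SOCS box genes 2 and 3.

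The level of a list on each array was taken as the mean of its genes, each centered on its own mean over the arrays. For the 17 immediate early genes it lay between 0.27 and 1.34 on the HSC subset arrays, between 0.17 and 0.42 in CMP, between -1.49 and -0.997 in GMP and between -1.58 and -1.44 in MEP. The interferon-stimulated genes, taken the same way, lay between 0.31 and 0.995 on HSC subset arrays and between -1.12 and -0.14 on myeloid arrays. The genes that respond to Stat factors lay between 0.12 and 0.63 on HSC subset arrays, between 0.21 and 0.37 in CMP, between -0.12 and -0.078 in GMP and between -1.49 and -1.12 in MEP. HSC subset arrays thus overlapped CMP for this list and for the immediate early genes. The interferon-stimulated genes alone of these lists separated both sides on all arrays. For the immediate early genes the overlap came from the unnumbered LT-HSC array alone, at 0.27, whose low signal is described below. Every other HSC subset array stood at 0.81 or above, beyond the highest CMP array at 0.42. The part of any of these lists in the Socs differences was not tested.

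Marker lists of the populations were read as summed levels, in which the brightest genes weigh most. The summed level of 5 HSC markers lay between 13.43 and 14.12 (log2) in HSC subsets and between 7.36 and 10.55 in myeloid populations. Slamf1, one of the 5, went against the list, being well above background on 0 of 3 MPP arrays (1.97 ± 0.31, SD, n = 3) and on 3 of 3 CMP arrays (5.72 ± 0.45). The 5 GMP markers were highest in GMP, from 19.29 to 19.92, beside 18.35 to 19.06 in ST-HSC, 17.95 to 19.07 in CMP and 13.93 to 18.00 elsewhere. The 5 MEP markers were highest in MEP, from 16.17 to 16.59, beside 14.96 to 15.57 in LT-HSC, 14.91 to 15.70 in CMP and 12.08 to 15.38 elsewhere. Pf4, a platelet gene on that list, went against it, with its lowest mean in MEP (9.44 ± 0.45, SD, n = 3) and its highest in ST-HSC (14.68 ± 0.14). Of the genes behind the sort, Ly6a, which encodes Sca-1, had a higher mean in GMP (9.71 ± 0.67) than in ST-HSC (8.88 ± 0.79), and Cd34 had a higher mean in LT-HSC (14.96 ± 0.20, SD, n = 2) than in GMP (14.29 ± 0.23). Of markers of other cells, the 5 of mature neutrophils summed to 16.19 to 19.11 in HSC subsets and 15.22 to 17.80 in myeloid populations, all 5 well above background on every array. The 5 of T cells summed to 7.19 to 8.85 and 5.76 to 7.37, with 4 of them on no GMP array, and the 5 of mature erythroid cells to 12.84 to 14.54 in HSC subsets, 8.92 to 12.18 in CMP and GMP and 14.16 to 15.84 in MEP. The 5 of B cells summed to 11.28 to 12.89 in HSC subsets and 8.65 to 11.96 in myeloid populations, the 5 of macrophages to 9.56 to 12.31 and 8.46 to 10.92, and the 5 of endothelial cells to 8.11 to 8.68 and 8.28 to 9.68. Between LT-HSC and ST-HSC, the B cell sums (12.23 to 12.89 and 11.28 to 11.76) and T cell sums (8.63 to 8.70 and 7.19 to 8.01) were higher in LT-HSC. Macrophage sums (9.56 to 9.85 and 11.05 to 12.31) were higher in ST-HSC, and the other lists of other cells overlapped. The part of these markers in the Socs differences was not tested.

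One LT-HSC array, the unnumbered one, stood apart from the rest by its low signal. Its 75th percentile intensity was 53.1, against 243.3 or more on all other arrays, and 41.4% of its spots were well above background, against 48.2% to 70.1% elsewhere. Without both LT-HSC arrays, HSC subsets still exceeded myeloid populations by 4.14 for Socs3, 3.79 for Socs2, 2.07 for Cish, 1.78 for Socs1 and 1.64 for Socs5, all called by limma. Socs7 stood at -1.05, also called.

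Over the 17 arrays, the genes whose pattern was most like that of each Socs gene were sought among 15431 gene names with a probe well above background on at least 9 arrays. The arrays share 1 normalization and fall into distinct populations, so high values of Pearson's r are common here. Nr4a1, an immediate early nuclear receptor, was the most like Socs3 (r = 0.98), followed by TC1637884 and Gimap1. Cx3cl1 (r = 0.97), Maff and Vasn were the most like Cish. The closest to Socs1 were 2210010N04Rik (r = 0.98), 2900046G09Rik and 2610027C15Rik. Gimap5 (r = 0.96), Tmem140 and Sesn2 came closest to Socs2, and Herc3 (r = 0.97), Wdr13 and Dcun1d1 to Socs5. For Socs7 they were Slc4a1ap (r = 0.95), W75484 and Stx3. For Socs4 probe 3 they were Ankrd32 (r = 0.96), 2010106G01Rik and Ate1, and for Socs6 Ube2q1 (r = 0.94), Rap1a and Ppp3cb. Among the Socs genes themselves, r was 0.90 between Socs1 and Socs3, 0.89 between Socs1 and Socs5 and 0.88 between Socs1 and Socs2. It was 0.87 between Cish and Socs2, 0.86 between Socs3 and Socs5 and 0.86 between Cish and Socs3. Socs7 was at r = -0.83 with Socs1 and -0.67 with Socs3.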

How the data were processed

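For each of the 17 arrays, the authors deposited scanner files that give the intensity of every spot after background subtraction by the Agilent Feature Extraction software (version 9.5.3.1 for scanning run 1 and 10.2.1.3 for the later runs, per the file headers), with no normalization between arrays. A deposited table of quantile-normalized log2 values served as an alternative.

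As in the methods of the study, values were quantile normalized in limma 3.58.1 (R 4.3.3), but from the log2 of the background-subtracted intensity, whereas the authors' table follows the order of the median spot intensity (Spearman's rho of 1 on every array), so dim signals reach lower here. All spots entered this step. The 1639 control spots and outlier-marked spots were then dropped and the spots of a probe averaged. lmFit and eBayes fitted 1 mean per population to 41174 probes, with Benjamini-Hochberg adjustment at 0.05. The number of arrays limits the precision, and p-values measure the spread between pooled samples. Well above background is the mark set by the scanner software.

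The members, the lists and the rule for naming genes were chosen with earlier results of these data known. At most 3 genes each way are named from a pathway list, those with the largest called differences and no overlap between HSC subset and myeloid arrays. A gene that this rule would name is not reported here. Taking the unnumbered arrays as a number of their own, same-numbered arrays deviated together among CMP, GMP and MEP (9 pairs, r of 0.13 to 0.51). They also did so between ST-HSC and MPP (3 pairs, 0.29 to 0.67), not in the other pairs (17 pairs, -0.13 to 0.11). Differently numbered arrays lay between -0.39 and 0.17 in the first set (18 pairs, median -0.27). In the second they lay between -0.57 and 0.33 (6 pairs, median -0.38), so the ranges overlapped in both sets. Among CMP, GMP and MEP the number also follows slide or scanning run, which cannot be told apart from a pairing. With these limits, the number was read as a pairing inside the first 2 sets. The fit was tested on simulated data. Alternatives changed the normalization (75th percentile), the background correction (normexp, offset 50), the source (the authors' table), the filter on dim probes, the block (scanning run, slide or replicate number), the summary of a gene (all its probes) or the arrays used. A population left with 1 array was assumed to vary like the others. The miR arrays were not used here.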

Additional observations from a re-analysis of the deposited data

How the results depend on the processing

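The number of Socs probes called stayed within 1.5 times its value for the F-test, for HSC subsets against myeloid populations and for GMP and MEP against the others under all alternatives run. The probes called were not always the same. In MEP, Socs7 was lost and Socs4 probe 3 gained with scanning run as a block, and Socs4 probe 2 was gained with the replicate block. From LT-HSC to ST-HSC, where 1 was called, the number was 0 under 75th percentile normalization and with slide as a random block (1.66% and 1.22% of all probes called). It was 3 with scanning run as a block (8.81%; Socs1 and both Socs2 probes) and between 0 and 2 with arrays left out in turn. The replicate block leaves LT-HSC in this step on its low-signal unnumbered array, with Socs4 probe 1 at -1.29 and Socs6 probe 3 at 2.94. With scanning run as a block the number was 1 from ST-HSC to MPP in place of 0 (3.66% of all probes). From CMP to GMP it was 4 in place of 2 with that block (8.35%; Socs1 and Socs2 added). With slide as a random block it was 1 from ST-HSC to MPP (3.15%). With the replicate block it was 5 in place of 3 from MPP to CMP (10.96%), which are not paired by number, and 5 in place of 2 from CMP to MEP (23.3%), which are. Socs4 turned to -0.38 with scanning run as a block and -0.31 as the mean of its probes, and Socs6 to -0.081 with scanning run as a block, all uncalled. The cause was not tested. Under 75th percentile normalization the median of all probes was 0.31 for HSC subsets against myeloid populations, -0.29 for GMP, 0.13 for MEP and 0.49 from CMP to MEP. Dim signals limit Socs2 in GMP and MEP and Socs7 in LT-HSC.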
